A study of Mus musculus with 454 samples.

Results

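The RNA-binding proteins Cirbp and Rbm3, which cooling induces, and 8 chaperone genes that heat or misfolded protein induces were followed across a mouse brain RNA-seq series. The 10 genes were taken by name from a list that was drawn up with earlier results of these data known. The rule itself held no measured value. They are 10 of the 43346 genes in the count table. Cirbp and Rbm3 stand on one side, and Hspa1a, Hspa1b, Hspa8, Hsp90aa1, Hsph1, Dnajb1, Hspb1 and Hspa5 on the other. The mice received cocaine at 7.5 mg/kg or saline, on a chronic or an acute schedule, and each schedule and treatment was given to isolated and group-housed females and to isolated and group-housed males. The series' title places the isolation in adolescence. Libraries came from 4 brain regions labelled AMY, Nac, PFC and VTA (115, 112, 112 and 115 libraries), the usual abbreviations of the amygdala (the medial amygdala by the title), nucleus accumbens, prefrontal cortex and the ventral tegmental area. The 16 combinations in each region held 5 to 8 libraries each, 64 groups in all. Strain, age, the length of the chronic schedule and the time between the last injection and tissue collection were not given in the sources used here.

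Heat-shock proteins are chaperones that bind unfolded polypeptides. When unfolded protein accumulates in the cytosol, heat-shock factor 1 binds repeats of nGAAn in the promoters of their genes and raises transcription, and Hspa1a and Hspa1b are the classical strongly inducible targets. Hspa5 (BiP) is the corresponding Hsp70 of the endoplasmic reticulum and is induced by the unfolded protein response rather than by heat-shock factor 1 alone. Cirbp and Rbm3 are small RNA-binding proteins with a glycine-rich tail whose mRNAs rise with mild cooling and decline with warming. In the brain both follow the daily rhythm of body temperature, and Rbm3 has been studied for synapse protection in cooled mice. The question put to these libraries was whether the cold-inducible pair and the heat-inducible genes moved in opposite directions, by treatment, by schedule and from library to library.

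The promoter sequences are shown because heat-shock factor 1 and the unfolded protein response act through known promoter elements. The chaperone genes are called heat-inducible here as a short name, whether or not a match was found. The 150 bases before the start site are printed 5′ to 3′ for 4 heat-inducible members and Cirbp, from RefSeq on GRCm38.p6. Capitals mark 8-base matches to GAANNTTC or TTCNNGAA, a pair of inverted nGAAn repeats, and in Hspa5 the 19-base match to CCAAT, any 9 bases and CCACG, the endoplasmic reticulum stress element. The windows lie at chr17:34972157-34972306 on the minus strand for Hspa1a, chr5:149636337-149636486 on the minus strand for Hsph1, and chr5:135887769-135887918 on the plus strand for Hspb1. That of Hspa5 lies at chr2:34771940-34772089 on the plus strand and that of the first listed start of Cirbp at chr10:80167689-80167838 on the plus strand.
Hspa1a: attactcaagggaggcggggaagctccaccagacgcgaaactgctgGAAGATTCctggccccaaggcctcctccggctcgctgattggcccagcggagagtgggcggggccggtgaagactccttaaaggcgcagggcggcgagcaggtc
Hsph1: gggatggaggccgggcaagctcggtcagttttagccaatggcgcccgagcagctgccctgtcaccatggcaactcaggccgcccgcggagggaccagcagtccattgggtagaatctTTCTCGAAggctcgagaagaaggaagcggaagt
Hspb1: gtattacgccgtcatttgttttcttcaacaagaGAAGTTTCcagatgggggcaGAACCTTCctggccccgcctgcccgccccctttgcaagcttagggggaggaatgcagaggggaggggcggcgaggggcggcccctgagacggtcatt
Hspa5: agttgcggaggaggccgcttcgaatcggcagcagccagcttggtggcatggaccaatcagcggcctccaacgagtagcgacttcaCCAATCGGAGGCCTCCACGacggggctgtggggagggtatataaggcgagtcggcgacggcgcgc
Cirbp: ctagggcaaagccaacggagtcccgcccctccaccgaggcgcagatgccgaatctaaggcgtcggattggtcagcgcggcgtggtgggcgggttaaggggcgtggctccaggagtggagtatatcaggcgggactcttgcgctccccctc
The heat-shock match lay at -104 to -97 in Hspa1a, at -33 to -26 in Hsph1, and at both -117 to -110 and -97 to -90 in Hspb1. Hspa1b, whose window differed from that of Hspa1a at 1 of 150 bases, held its match at the same place. Neither motif was found in the Cirbp or Dnajb1 windows. Both strands were covered, since GAANNTTC and TTCNNGAA are each their own reverse complement. One or the other occurred in 7.73% of 32851 RefSeq windows of this length (GAANNTTC in 3.95%, TTCNNGAA in 4.21%), and the endoplasmic reticulum element, searched on both strands, in 0.0822%. Of the 10 members, 7 had an entry in the promoter table, and Rbm3, Hsp90aa1 and Hspa8 are named only. The letters describe the windows and say nothing of binding in these mice.

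The annotation (GENCODE M21, GRCm38) places Cirbp on chromosome 10 at 80165985-80172786 (plus strand) and Rbm3 on the X chromosome at 8138975-8145880 (minus). Hspa1a and Hspa1b are neighbours on chromosome 17, at 34969190-34972156 and 34956436-34959238 (both minus), and encode nearly identical proteins. Of the 50-base stretches of Hspa1a, 60.3% also occurred in another gene, mostly Hspa1b, and the share for Hspb1 was 48.8%, shared with the pseudogene Hsp25-ps1. Hsp90aa1 shared 47.5% of its stretches, mostly with Gm12346, and Hspa8 38.6%, mostly with Gm15459. For these genes the split of 50-base reads between copies is uncertain. Rbm3 shared 8.38%, Dnajb1 0.38%, and Cirbp, Hsph1 and Hspa5 shared none. Median counts per library were 1449.5 for Cirbp, 1054.5 for Rbm3, 66 for Hspa1a, 76 for Hspa1b and 92.5 for Hspb1, and from 1247 to 26764 for the other members, so Hspa1a, Hspa1b and Hspb1 are the least precisely counted.

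Libraries held 11.21 to 52.34 M counts (M, mega), with a median of 21.71 M, and median totals per region, schedule and treatment lay between 19.3 and 23.6 M. Defining markers were high in the regions that the labels name: in chronic saline libraries the summed median of 8 striatal markers was 5678 CPM (counts scaled to a common library total) in Nac, that of 7 cortical glutamatergic markers 2209.6 in PFC, that of 7 dopamine neuron markers 5035 in VTA and that of 7 medial amygdala and hypothalamic markers 300.2 in AMY. The last of these does not set AMY apart, since in acute saline libraries it was 272 CPM in AMY and 427 in VTA. A set of 29 libraries stood apart, 7, 7, 8 and 7 in AMY, Nac, PFC and VTA, through markers of a neighbouring tissue such as choroid plexus, through a principal component, or through counts that did not match the labelled sex. The edgeR tests and the correlations were repeated without them. Titles carry numbers in 4 series (500, 1000, 1100 and 1200) whose meaning the labels do not give. Acute libraries came from series 1000 and 1100, chronic saline from 500 and 1200, and chronic cocaine from 1000 and 1200. Nothing in the labels says that libraries are separate animals, and the p-values speak only of the spread from library to library, which may be technical. In bulk tissue, fewer cells of a type and less RNA per cell cannot be told apart.

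All 10 genes were detected in every region, at very different levels. On a per-kilobase scale, CPM divided by exon length and averaged over the libraries of a region (scaled over all libraries of the series), Hspa8, the constitutive cytosolic Hsp70, was the highest, at 269.7 ± 30.5, 243 ± 44.4, 304 ± 38.9 and 376 ± 38.3 in AMY, Nac, PFC and VTA (SD, n = 115, 112, 112 and 115). Hsp90aa1, the inducible cytosolic Hsp90, followed at 145, 117, 164 and 190.2 CPM per kb in the same order of regions. Hspa5 lay between 69.0 and 76.8 CPM per kb, and Hsph1 (Hsp110), a nucleotide exchange factor for Hsp70, between 45.0 and 54.3. Cirbp and Dnajb1, an Hsp40 that passes clients to Hsp70, came next. Rbm3 and the small heat-shock protein Hspb1 (Hsp25) stood lower, and Hspa1b and Hspa1a, which most unstressed cells barely express, were at 0.861 to 2.51 and 0.545 to 1.40 CPM per kb.

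**Figure D1:**
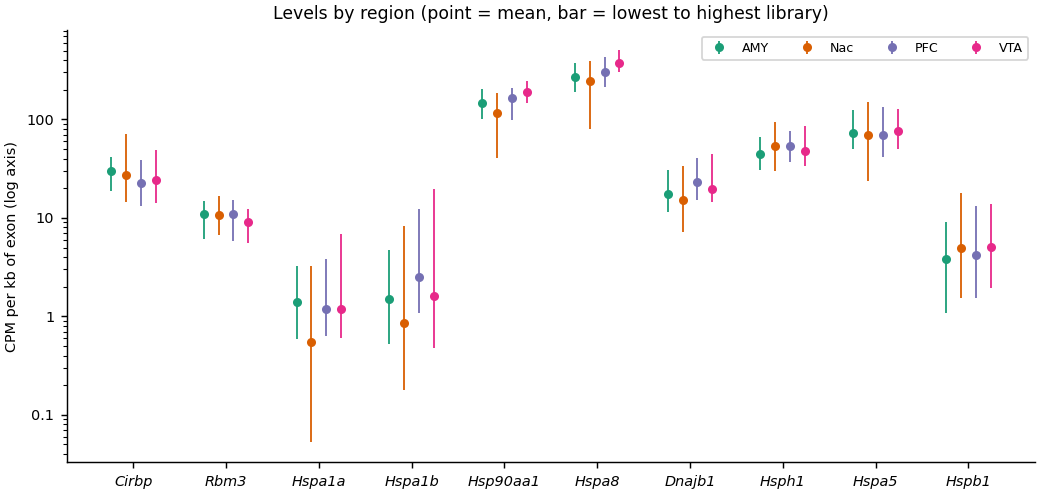
Levels of the 10 members by region, as CPM per kb of exon on a log axis; each point is the mean over the libraries of a region, and the bar runs from the lowest to the highest library. Hspa8 and Hsp90aa1 lie highest in each region, and Hspa1a and Hspa1b lowest.

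The regions ranked differently for each gene. Cirbp was highest in AMY at 29.7 ± 5.24 CPM per kb, then 27.0 ± 7.16 in Nac, 24.4 ± 4.28 in VTA and 22.7 ± 4.505 in PFC (SD over libraries). All neighbours in that order differed in a limma fit over all libraries with the title number as a block, although the ranges overlapped. Rbm3, by contrast, had 11.005, 10.9 and 10.6 CPM per kb in AMY, PFC and Nac, while VTA was lower at 9.06. In that fit neither AMY from PFC (adjusted p = 0.916) nor Nac from PFC (adjusted p = 0.0643) passed for Rbm3. The fit gave all genes 1 block correlation, 0.031. Residuals of Rbm3 correlated at 0.67 to 0.81 between regions of one number, so the fit used little of that pairing. Differences that did not pass are thus not shown to be absent. Hspa8 and Hsp90aa1 shared the order VTA, PFC, AMY, Nac. Dnajb1 and Hspa1b were highest in PFC, at 23.1 and 2.51 CPM per kb, and lowest in Nac, at 15.2 and 0.861. Hspa1a was lowest in Nac too, but its highest level was in AMY. Hsph1 was highest in Nac and PFC, whose difference did not pass, and Hspb1 in VTA and Nac, whose difference did not pass either. Hspa1b was not separated between AMY and VTA (adjusted p = 0.0724), nor Hspa1a between PFC and VTA (adjusted p = 0.0743). Of the 10 members, 10 passed in AMY against Nac, 8 in AMY against PFC, 9 in AMY against VTA, 7 in Nac against PFC, 9 in Nac against VTA and 9 in PFC against VTA. Over all genes tested, the share that passed was 84.5%, 81.7%, 87.3%, 86.4%, 90.7% and 89.5% for the same pairs, so the members' counts are near the background.

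The clearest movement of both classes was between schedules. Under saline, chronic libraries carried more Cirbp and Rbm3 mRNA than acute libraries in all 4 regions, and less Dnajb1, Hsph1 and Hspa5 mRNA in all 4. The test was edgeR's quasi-likelihood test over all genes of a region, with the mean over sex and housing as the contrast, an adjusted p under 0.05 as the call, and log2 fold changes given as chronic minus acute. It called 9, 9, 8 and 8 of 10 members in AMY, Nac, PFC and VTA. The background was high: 20.4%, 20.9%, 23.3% and 43.6% of all genes passed in AMY, Nac, PFC and VTA. No number series holds both chronic and acute saline libraries, so schedule and series cannot be told apart in this comparison.

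Cirbp had the largest log2 fold change of the well-counted members in AMY, Nac and PFC. Cirbp in AMY ran 70.5 to 114 CPM with a median of 96.1 in chronic saline libraries, against 57.7 to 87.7 CPM with a median of 68.6 in acute saline libraries. Cirbp in Nac ran 70.1 to 184 CPM with a median of 82.9 in chronic saline libraries, against 41.5 to 80.1 CPM with a median of 59.1 in acute saline libraries. Every chronic library of either region lay above the acute median (30 of 30 and 28 of 28), though the ranges overlapped. Cirbp in PFC ran 54.7 to 97.7 CPM with a median of 66.4 in chronic saline libraries, against 43.1 to 59.8 CPM with a median of 49.5 in acute saline libraries. Cirbp in VTA ran 58.6 to 126 CPM with a median of 72.4 in chronic saline libraries, against 46.4 to 77.6 CPM with a median of 61.3 in acute saline libraries. PFC again had every chronic library above the acute median (26 of 26), and VTA 25 of 29. The log2 fold changes were 0.44 ± 0.05 in AMY (adjusted p = 6.63e-11), 0.55 ± 0.08 in Nac (1.03e-07), 0.46 ± 0.06 in PFC (1.90e-10), with 0.22 ± 0.06 in VTA (0.000859), each with its SE. Cirbp rose in all 4 regions.

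Rbm3, the closest relative of Cirbp in structure and in its response to cooling, rose in every region too. Rbm3 in AMY ran 44.3 to 73.9 CPM with a median of 57.5 in chronic saline libraries, against 33.1 to 61.0 CPM with a median of 48.9 in acute saline libraries. Rbm3 in Nac ran 42.6 to 77.2 CPM with a median of 55.5 in chronic saline libraries, against 34.4 to 61.0 CPM with a median of 46.0 in acute saline libraries. Rbm3 in PFC ran 41.8 to 69.5 CPM with a median of 57.5 in chronic saline libraries, against 32.3 to 52.7 CPM with a median of 46.2 in acute saline libraries. These ranges overlapped, with 29 of 30, 25 of 28 and 25 of 26 chronic libraries above the acute median of AMY, Nac and PFC. Rbm3 in VTA ran 38.2 to 57.6 CPM with a median of 50.0 in chronic saline libraries, against 33.8 to 48.0 CPM with a median of 40.3 in acute saline libraries. The log2 fold changes were 0.29 ± 0.06, 0.28 ± 0.06, 0.32 ± 0.05 and 0.23 ± 0.04 in AMY, Nac, PFC and VTA, with adjusted p-values from 3.15e-06 to 0.00011.

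**Figure D2:**
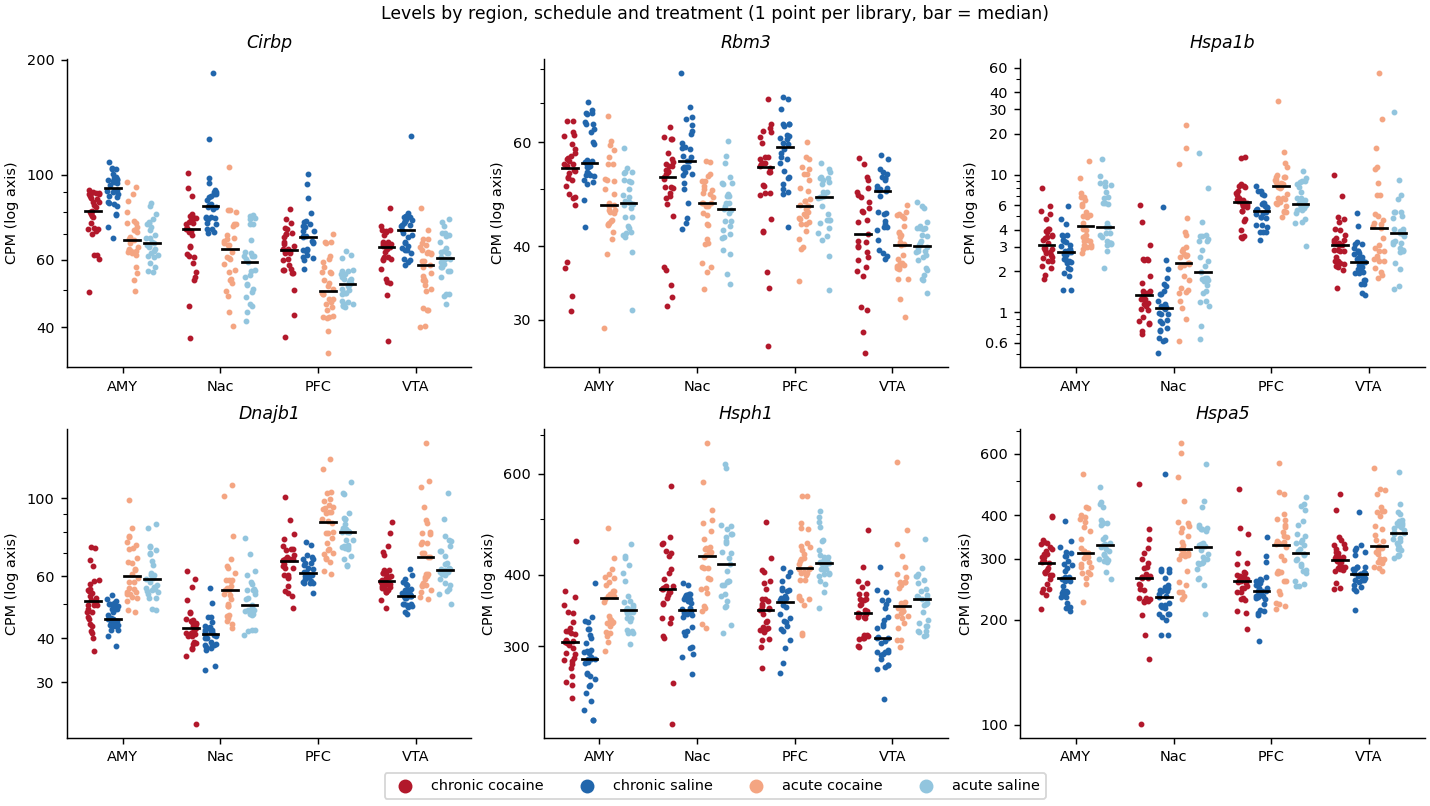
CPM of 6 members in every library (log axis), 1 point per library with the median as a bar, by region and, within a region, for chronic cocaine, chronic saline, acute cocaine and acute saline; values are scaled over all libraries of the series. Cirbp and Rbm3 medians are higher in chronic than in acute saline libraries of every region, and those of Dnajb1, Hsph1 and Hspa5 are lower; single acute libraries reach the highest Hspa1b.

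Dnajb1, the Hsp40 co-chaperone that heat-shock factor 1 induces together with Hsp70, fell in every region. Dnajb1 in AMY ran 39.7 to 54.9 CPM with a median of 47.5 in chronic saline libraries, against 50.0 to 88.1 CPM with a median of 61.0 in acute saline libraries. Dnajb1 in PFC ran 52.5 to 72.4 CPM with a median of 58.7 in chronic saline libraries, against 61.8 to 106 CPM with a median of 76.7 in acute saline libraries. No chronic library of AMY or PFC exceeded the acute median (0 of 30 and 0 of 26). Dnajb1 in Nac ran 33.7 to 54.3 CPM with a median of 41.2 in chronic saline libraries, against 41.7 to 76.8 CPM with a median of 49.6 in acute saline libraries. Dnajb1 in VTA ran 47.1 to 63.2 CPM with a median of 53.2 in chronic saline libraries, against 50.2 to 104 CPM with a median of 63.1 in acute saline libraries. Above the acute median lay 2 of 28 chronic libraries in Nac and 1 of 29 in VTA. Its log2 fold changes were -0.39 ± 0.05, -0.33 ± 0.06, -0.35 ± 0.05 and -0.30 ± 0.06 in AMY, Nac, PFC and VTA, with adjusted p-values of 1.89e-09, 6.86e-05, 5.02e-08 and 1.50e-05.

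Hsph1 recharges Hsp70 with ATP and works with it in pulling apart aggregates. Hsph1 in AMY ran 229.6 to 398 CPM with a median of 296 in chronic saline libraries, against 315 to 467 CPM with a median of 359 in acute saline libraries. Hsph1 in Nac ran 273 to 383 CPM with a median of 346 in chronic saline libraries, against 315 to 623 CPM with a median of 416 in acute saline libraries. The acute libraries were the higher ones, and 1 of 30 and 0 of 28 chronic libraries exceeded the acute median. Hsph1 in PFC ran 266 to 393 CPM with a median of 343 in chronic saline libraries, against 337 to 493.1 CPM with a median of 399.9 in acute saline libraries. Hsph1 in VTA ran 243 to 417 CPM with a median of 311 in chronic saline libraries, against 315 to 465.7 CPM with a median of 366 in acute saline libraries. PFC had 0 of 26 chronic libraries above that median and VTA 3 of 29. The gene fell with log2 fold changes of -0.32 ± 0.04, -0.31 ± 0.06, -0.27 ± 0.04 and -0.19 ± 0.04 in AMY, Nac, PFC and VTA, the last with an adjusted p of 0.00016.

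Hspa5, the Hsp70 of the endoplasmic reticulum, moved with the cytosolic genes. Hspa5 in AMY ran 218 to 395 CPM with a median of 275 in chronic saline libraries, against 273 to 495 CPM with a median of 339 in acute saline libraries. Hspa5 in Nac ran 177 to 524.3 CPM with a median of 234 in chronic saline libraries, against 207 to 561 CPM with a median of 325 in acute saline libraries. Hspa5 in PFC ran 169 to 334 CPM with a median of 232 in chronic saline libraries, against 239 to 428 CPM with a median of 298 in acute saline libraries. Again nearly all chronic libraries were below the acute median, namely 28 of 30 in AMY, 27 of 28 in Nac and 25 of 26 in PFC. Hspa5 in VTA ran 214 to 413 CPM with a median of 272 in chronic saline libraries, against 304 to 535 CPM with a median of 359 in acute saline libraries. The log2 fold changes were -0.34 ± 0.05, -0.42 ± 0.08, -0.39 ± 0.07 and -0.37 ± 0.05 in AMY, Nac, PFC and VTA, and all passed, with adjusted p-values up to 0.000104.

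Hspa1a and Hspa1b are the stress-inducible Hsp70 pair, and Hspa1b had the largest log2 fold change of all members in AMY, Nac and VTA. Hspa1b in AMY ran 1.49 to 6.16 CPM with a median of 2.89 in chronic saline libraries, against 2.20 to 13.5 CPM with a median of 4.38 in acute saline libraries. Hspa1b in Nac ran 0.511 to 5.77 CPM with a median of 1.08 in chronic saline libraries, against 0.637 to 14.4 CPM with a median of 1.998 in acute saline libraries. Acute groups reached the higher maxima here and in VTA, where a few libraries stood far above the rest. Hspa1b in VTA ran 1.34 to 5.31 CPM with a median of 2.34 in chronic saline libraries, against 1.484 to 28.7 CPM with a median of 3.78 in acute saline libraries. Hspa1b in PFC ran 3.27 to 7.82 CPM with a median of 5.26 in chronic saline libraries, against 2.93 to 10.2 CPM with a median of 5.92 in acute saline libraries. Hspa1b fell, with log2 fold changes of -0.91 ± 0.14 in AMY (adjusted p = 5.20e-07), -1.02 ± 0.26 in Nac (0.00224) and -0.90 ± 0.22 in VTA (0.000483), while PFC, at -0.25 ± 0.12, did not pass (0.137). Hspa1a gave -0.33 ± 0.10, -0.56 ± 0.20 and -0.53 ± 0.14 in AMY, Nac and VTA, which passed, and -0.19 ± 0.09 in PFC, which did not (0.13). Because the copies share most of their sequence, their counts were also summed; the sum gave -0.62 in AMY, -0.83 in Nac, -0.23 in PFC (adjusted p = 0.112), with -0.72 in VTA, with the same 3 regions called.

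The abundant cytosolic chaperones fell in AMY, Nac and PFC but not past the threshold in VTA. Hspa8 in PFC ran 997 to 1278 CPM with a median of 1144 in chronic saline libraries, against 1167 to 1791 CPM with a median of 1323 in acute saline libraries. Hspa8, which folds new proteins and strips clathrin from vesicles, had log2 fold changes of -0.15 ± 0.04 in AMY, -0.33 ± 0.06 in Nac and -0.23 ± 0.04 in PFC, and all 26 chronic PFC libraries were below the acute median. In VTA its log2 fold change was 0.06 ± 0.04 and did not pass (adjusted p = 0.137). Hsp90aa1, which matures kinases and steroid receptors, gave -0.14 ± 0.04 in AMY, -0.28 ± 0.06 in Nac and -0.13 ± 0.04 in PFC, all called, and -0.02 ± 0.04 in VTA (adjusted p = 0.699). Hspb1, which holds unfolded proteins without using ATP, fell in PFC (-0.38 ± 0.13, adjusted p = 0.0245) and VTA (-0.42 ± 0.13, adjusted p = 0.00474). Its values of -0.26 ± 0.13 in AMY and -0.29 ± 0.13 in Nac did not pass.

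Each combination of sex and housing was also taken by itself. Over the 16 combinations of region, sex and housing under saline, the chronic group mean of Cirbp was above the acute one in 16, and so was that of Rbm3, while those of Dnajb1, Hsph1 and Hspa5 were below it in 16. The counts below were 15 for Hspa1a, 15 for Hspa1b, 14 for Hsp90aa1, 14 for Hspb1 and 12 for Hspa8. In PFC, Cirbp averaged 68.0 ± 12.2 CPM in chronic and 48.3 ± 3.58 CPM in acute saline libraries of isolated females (mean ± SD over the group), and 68.0 ± 13.8 against 49.8 ± 4.46 in group-housed females. Isolated males had 69.2 ± 7.39 in chronic and 49.9 ± 3.75 in acute libraries, and group-housed males 67.5 ± 8.89 and 50.5 ± 7.09. Dnajb1 in the same tissue ran the other way in each combination. Its means were 61.6 ± 6.50 CPM in chronic and 73.0 ± 5.73 in acute libraries of isolated females, and 61.5 ± 5.22 and 69.1 ± 4.25 in group-housed females. Isolated males had 59.0 ± 3.69 in chronic and 84.2 ± 7.10 in acute libraries, and group-housed males 59.0 ± 4.24 and 81.1 ± 15.7. These group values are given without a test of their own. PFC is shown because the fewest cell type markers differed between its schedules.

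Pairing each chronic series with each acute series kept the signs of the 5 genes that led the comparison. The pairings divide the libraries that were already compared, so they are not independent of it. They do not separate schedule from series. Over the 4 pairings of series 500 or 1200 with 1000 or 1100, the log2 fold change of Cirbp ran 0.40 to 0.48, 0.47 to 0.81, 0.42 to 0.50 and 0.13 to 0.32 in AMY, Nac, PFC and VTA. Rbm3 ran 0.27 to 0.31, 0.19 to 0.32, 0.27 to 0.39 and 0.16 to 0.33 in the same order. Dnajb1 stayed negative at -0.42 to -0.34, -0.40 to -0.18, -0.40 to -0.31 and -0.33 to -0.25, and so did Hsph1 and Hspa5 in every pairing. Not every one of these values passed, and in Nac the isolated females of series 500 were a single library, which stood apart. Against series 1000, series 500 had 0.17 (adjusted p = 0.125) for Cirbp in VTA, -0.18 (adjusted p = 0.147) for Dnajb1 in Nac and -0.28 (adjusted p = 0.0552) for Hspa5 in Nac, and series 1200 had 0.13 (adjusted p = 0.219) for Cirbp and -0.11 (adjusted p = 0.138) for Hsph1 in VTA. Rbm3 in Nac had 0.19 (adjusted p = 0.0812) between series 500 and 1100. The number of members called varied with the pairing, from 6 to 7 in AMY and in PFC, 5 to 9 in Nac and 4 to 8 in VTA, while 4.38% to 19.6% of all genes passed in AMY, 4.09% to 41.2% in Nac, 8.63% to 19.3% in PFC and 18.5% to 34.1% in VTA.

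Some markers of cell types moved with the schedule too. In AMY, 7 of 8 endothelial markers rose (summed median 222 CPM in chronic against 195 CPM in acute saline libraries) and 6 of 9 choroid plexus markers fell (77.4 CPM in chronic against 85.8 CPM in acute saline libraries, with an acute maximum of 4015). Of 8 astrocyte markers there, 5 rose (1669.6 CPM in chronic against 1509 CPM in acute saline libraries). In VTA, 6 of 7 dopamine neuron markers rose (5035 CPM in chronic against 2989 CPM in acute saline libraries), 7 of 7 microglial markers rose (298 CPM in chronic against 235 CPM in acute saline libraries) and 5 of 9 choroid plexus markers fell (29.7 CPM in chronic against 49.5 CPM in acute saline libraries). The medial amygdala and hypothalamic set fell in VTA for 4 of 7 markers and rose for 1 (212 CPM in chronic against 427 CPM in acute saline libraries), and the cerebellar granule set rose for 3 of 6 and fell for 2 (61.1 CPM in chronic against 107 CPM in acute saline libraries). In Nac, 4 of 8 striatal markers rose (5678 CPM in chronic against 4566 CPM in acute saline libraries) and 4 of 8 astrocyte markers fell. In all, 28 of 80, 19 of 76, 11 of 74 and 43 of 81 tested markers were called in AMY, Nac, PFC and VTA. Of all genes, 20.4%, 20.9%, 23.3% and 43.6% were called. The marker counts lay above that share in AMY and VTA, near it in Nac and below it in PFC. The endothelial sum of PFC was 199 CPM in chronic against 195 CPM in acute saline libraries. The part of these markers in the members' changes was not tested. With the 29 libraries that stood apart left out, the counts of members called were again 9, 9, 8 and 8 in AMY, Nac, PFC and VTA, but in Nac Hspa1a lost its call and Hspb1 gained one. The 37 mitochondrial genes of the table were listed at 0 in every library, so they give no measure of RNA quality.

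**Figure D3:**
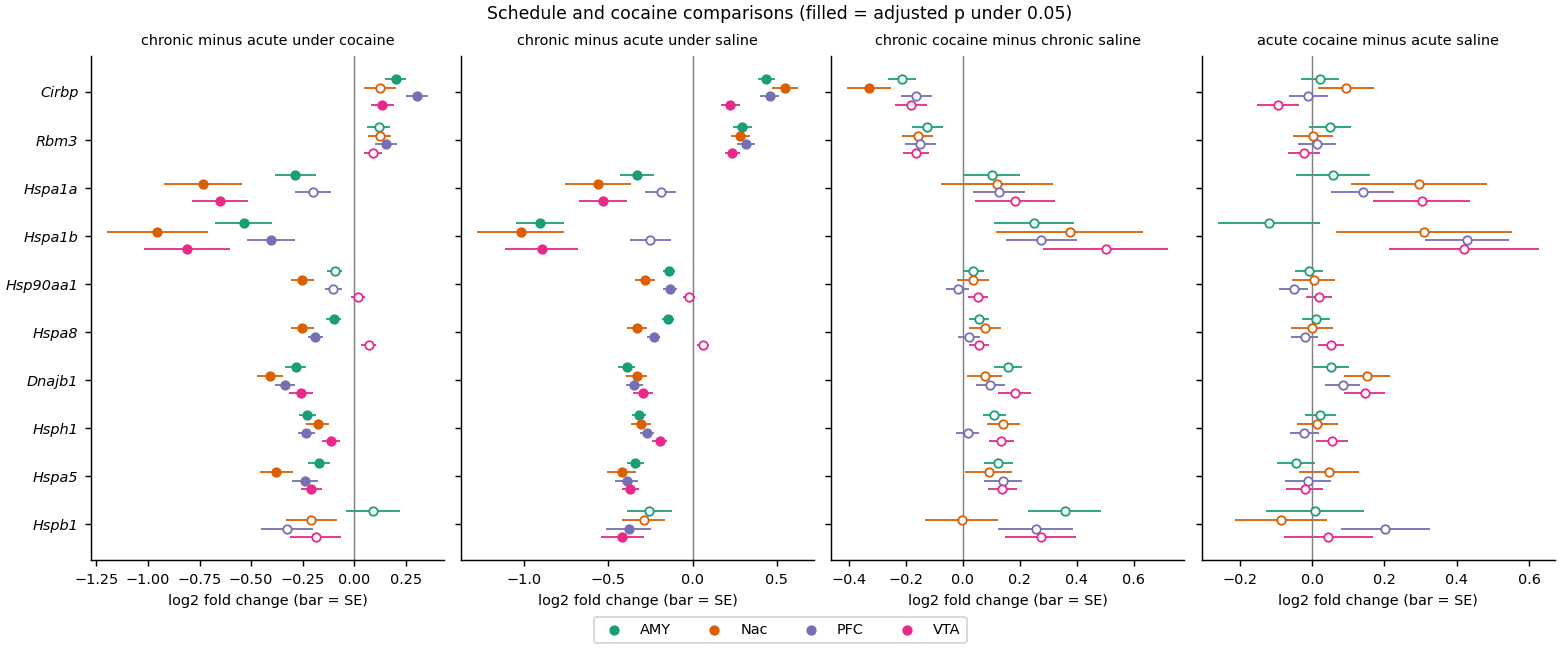
Log2 fold changes of the 10 members with their SE, for chronic minus acute under cocaine, chronic minus acute under saline, and chronic and acute cocaine minus saline; colours are regions and filled points passed an adjusted p of 0.05. Under saline Cirbp and Rbm3 lie right of 0 in all regions, with Dnajb1, Hsph1 and Hspa5 left of it, and acute cocaine has no filled point.

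Under cocaine the same comparison of schedules had the same signs for the leading genes. It called 7, 7, 7 and 6 members in AMY, Nac, PFC and VTA, where 18.4%, 24.3%, 18.5% and 38.2% of all genes passed. Of the cell type markers, 31 of 80, 16 of 76, 23 of 74 and 45 of 81 were called in AMY, Nac, PFC and VTA, and their part was not tested. Cirbp rose in AMY (0.20 ± 0.05, adjusted p = 0.00265), PFC (0.30 ± 0.05, 8.97e-06) and VTA (0.14 ± 0.06, 0.0476), and its value of 0.13 ± 0.08 in Nac did not pass. The VTA call ended without the libraries that stood apart. Rbm3 rose in PFC (0.15 ± 0.05, 0.0296), against 0.12, 0.12 and 0.09 in AMY, Nac and VTA.

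Dnajb1, Hsph1, Hspa5 and Hspa1b fell in all 4 regions under cocaine. Dnajb1 in Nac ran 22.7 to 61.7 CPM with a median of 42.4 in chronic cocaine libraries, against 42.6 to 108 CPM with a median of 54.8 in acute cocaine libraries. Dnajb1 in PFC ran 48.2 to 96.3 CPM with a median of 63.8 in chronic cocaine libraries, against 59.6 to 125 CPM with a median of 81.9 in acute cocaine libraries. Most chronic libraries lay below the acute median, 26 of 29 in Nac and 26 of 28 in PFC. The log2 fold changes of Dnajb1 were -0.28, -0.41, -0.34 and -0.26 in AMY, Nac, PFC and VTA. Those of Hsph1 were -0.23, -0.18, -0.23 and -0.11, and those of Hspa5 -0.17, -0.38, -0.24 and -0.21. Hspa1b gave -0.54, -0.95, -0.40 and -0.81. Hspa1a fell in AMY (-0.29), Nac (-0.73) and VTA (-0.65). Hspa8 fell in AMY (-0.10), Nac (-0.25) and PFC (-0.19), Hsp90aa1 in Nac (-0.25), and Hspb1 in none.

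With number series as a term in the fit, 3 members were called under cocaine in AMY (Hspa1b, Dnajb1 and Hsph1), 1 in Nac (Dnajb1), 4 in PFC (Cirbp, Hspa8, Dnajb1 and Hsph1), with 1 in VTA (Hspa8, higher in chronic libraries). In that fit 21.6%, 13.5%, 12% and 32.8% of all genes passed in AMY, Nac, PFC and VTA. Series 1000 holds both schedules under cocaine. Within it 4, 1, 4 and 0 members passed in AMY, Nac, PFC and VTA, while 15.2%, 5.3%, 9.87% and 17% of all genes passed. Cirbp rose in PFC (0.24 ± 0.07, adjusted p = 0.0244), and its values of 0.14 ± 0.07 in AMY, 0.00 ± 0.09 in Nac and 0.11 ± 0.07 in VTA did not pass. Dnajb1 fell in AMY (-0.16 ± 0.06), Nac (-0.24 ± 0.07) and PFC (-0.25 ± 0.06), and Hsph1 in AMY (-0.18 ± 0.05) and PFC (-0.16 ± 0.05). Hspa1b fell in AMY (-0.51) and Hspa8 in PFC (-0.15). Hspb1 rose in AMY by 0.46, against the direction of the other heat-inducible genes. In VTA, edgeR called none of the 10 at the adjusted threshold, with 0 at an unadjusted p under 0.05 and 0 called by DESeq2. The AMY count was 2 without the libraries that stood apart and 1 with no filter on low counts, and the PFC count was 2 with no filter.

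Averaging the 4 regions of each title number gave 1 value for each of the 86 numbers present in all 4 regions. On that scale (limma on log2 CPM), all 10 members passed between schedules under saline, against 34.4% of all genes. Cirbp stood at 0.45 ± 0.06 and Rbm3 at 0.31 ± 0.06, and the 8 heat-inducible genes were all lower in chronic libraries, from -0.58 ± 0.15 for Hspa1b to -0.17 ± 0.04 for Hsp90aa1. Under cocaine 8 passed, against 26.6% of all genes, with Cirbp at 0.20 ± 0.06. Rbm3 (0.13 ± 0.05, adjusted p = 0.0592) and Hspb1 (-0.17 ± 0.10, adjusted p = 0.215) were the members that did not. The same caution on number series applies to these means.

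Whether the schedule difference varied between regions was tested in a limma fit over all libraries. Under saline it did for Hspa8 (F test, adjusted p = 7.28e-08), Hsp90aa1 (0.00226) and Cirbp (0.0109), and under cocaine for Hspa8 (2.78e-06) and Hsp90aa1 (0.000405). Of all genes, 31.8% under saline and 43.8% under cocaine varied in this way. Among single regions only VTA was tested against the mean of the others. Its change in Hspa8 was higher by 0.31 under saline and 0.26 under cocaine on the log2 scale. That in Hsp90aa1 was higher by 0.18 and 0.18, and that in Cirbp under saline was -0.24 from the others. Nac lay on the other side of the mean of the others, at -0.22 under saline and -0.20 under cocaine for Hspa8, -0.19 and -0.21 for Hsp90aa1, and 0.17 for Cirbp under saline, without a test of its own. Dnajb1, Hsph1, Hspa5 and Rbm3 showed no difference between regions that passed. In VTA 6 of 7 dopamine neuron and 7 of 7 microglial markers also rose with the schedule, and their part in this was not tested.

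Other genes of the pathways went partly the same way, and these lists were chosen with results of the data known. Of 20 further heat-shock response genes, none rose and 11 fell under saline in AMY (median log2 fold change -0.10), none rose and 11 fell in Nac (-0.17) and none rose and 11 fell in PFC (-0.11), while in VTA 3 rose and 6 fell (-0.03). Of all genes tested, 11.1%, 9.86%, 11.3% and 22.2% fell in AMY, Nac, PFC and VTA, and the median over all genes tested lay between 0.0024 and 0.012. Chordc1, a partner of Hsp90, fell in every region (-0.30, -0.42, -0.28 and -0.25 in AMY, Nac, PFC and VTA). Hspa4, an Hsp110 relative of Hsph1, fell in AMY (-0.11), Nac (-0.19) and PFC (-0.16), and Stip1, which links Hsp70 to Hsp90, in Nac (-0.30) and PFC (-0.18). Hspbp1, which releases nucleotide from Hsp70, rose in VTA (0.26). Under cocaine none of the list rose in AMY, Nac or PFC, where 9, 15 and 6 genes fell, and in VTA 3 rose and 3 fell, while 9.75%, 10.9%, 8.66% and 20% of all genes fell. Within series 1000, 1 of the 20 rose in AMY and in VTA, and 1 fell in Nac and in PFC, where 7.07%, 2.36%, 4.34% and 9.13% of all genes fell in AMY, Nac, PFC and VTA.

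Partners of Hspa5 in the endoplasmic reticulum were lower as well. Of 22 such genes, none rose and 15 fell under saline in AMY (median -0.13), none rose and 10 fell in Nac (-0.15), 1 rose and 16 fell in PFC (-0.17), with 1 rose and 13 fell in VTA (-0.14). Of all genes tested, 11.1%, 9.86%, 11.3% and 22.2% fell in AMY, Nac, PFC and VTA. Pdia4, a disulfide isomerase, fell in AMY, Nac and PFC (-0.37, -0.40 and -0.37), and so did Xbp1, a transcription factor of the unfolded protein response (-0.30, -0.28 and -0.37). Creld2, a protein of the same compartment, had -0.38 in AMY and -0.53 in VTA, and the Hsp70 relative Hyou1 -0.19 and -0.19. Under cocaine 4, 13, 11 and 7 of the 22 fell in AMY, Nac, PFC and VTA, and 1 rose in VTA. Against the shares of all genes that fell, 9.75%, 10.9%, 8.66% and 20%, the counts in AMY and VTA were nearer the background than those in Nac and PFC. Within series 1000, 0, 1, 0 and 2 of the 22 fell, beside 7.07%, 2.36%, 4.34% and 9.13% of all genes. Edem1, which passes misfolded glycoproteins on for degradation, rose there in AMY (0.18) and PFC (0.15), against the direction of the list under saline. Of the 9 heat-shock factors, their binding protein and temperature-gated channels, Hsf1 itself fell under saline in AMY (-0.17), Nac (-0.11) and VTA (-0.23). In AMY Hsf2 fell too (-0.10). Of all genes, 20.4%, 20.9%, 23.3% and 43.6% passed under saline in AMY, Nac, PFC and VTA. The warmth-gated channel Trpv3 rose in AMY (0.32), Nac (0.36) and PFC (0.46), and the heat-gated channel Trpv1 fell in VTA (-2.45). Trpv3 was counted low, with means of 1.71 CPM in chronic and 1.36 in acute saline libraries of AMY, and 2.42 and 1.89 in Nac. Trpv1 was too low in Nac to enter this comparison. The medial amygdala and hypothalamic marker sum was also lower in chronic VTA libraries, and its part was not tested.

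Acute cocaine moved none of the 10 genes past the threshold in any region. Over all genes 0%, 0%, 0.0647% and 0.0467% passed in AMY, Nac, PFC and VTA. At an unadjusted p under 0.05, edgeR had 0, 1, 1 and 3 members in AMY, Nac, PFC and VTA, and DESeq2 called 0 of the 40 gene and region pairs. Hspa1b in PFC ran 4.74 to 33.3 CPM with a median of 8.01 in acute cocaine libraries, against 2.93 to 10.2 CPM with a median of 5.92 in acute saline libraries. The acute cocaine libraries reached higher, and 24 of 30 lay above the acute saline median, but the log2 fold change of 0.43 ± 0.12 had an adjusted p of 0.192. Within series 1100 it passed (0.66 ± 0.15, adjusted p = 0.0495), where 0%, 0%, 0.0666% and 1.5% of all genes passed in AMY, Nac, PFC and VTA. Without replicate 6 of the isolated males on acute cocaine it was 0.45 with an adjusted p of 0.417.

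Chronic cocaine was set against chronic saline to ask whether repeated drug changed the same genes. Cirbp in AMY ran 51.0 to 96.5 CPM with a median of 82.4 in chronic cocaine libraries, against 70.5 to 114 CPM with a median of 96.1 in chronic saline libraries. Cirbp in Nac ran 37.3 to 102 CPM with a median of 72.1 in chronic cocaine libraries, against 70.1 to 184 CPM with a median of 82.9 in chronic saline libraries. The cocaine libraries were the lower ones, and only 1 of 30 in AMY and 3 of 29 in Nac exceeded the saline median. The log2 fold changes were -0.21 ± 0.05 in AMY (adjusted p = 0.0545), -0.33 ± 0.08 in Nac (0.0384), -0.16 ± 0.06 in PFC (0.0551), with -0.18 ± 0.06 in VTA (0.396). Cirbp in Nac was the 1 member called in a region, beside 0.0518%, 0.151%, 7.12% and 0.0817% of all genes in AMY, Nac, PFC and VTA. That call rested on replicate 6 of the isolated females on chronic saline, a library that stood apart: without it the value was -0.26 with an adjusted p of 0.125. Conversely, Cirbp in AMY was called without the libraries that stood apart and under DESeq2.

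Rbm3 was lower in chronic cocaine than in chronic saline libraries in each region, at -0.12 ± 0.05, -0.16 ± 0.06, -0.15 ± 0.05 and -0.16 ± 0.04 in AMY, Nac, PFC and VTA, with no call. Dnajb1 had 0.16, 0.08, 0.10 and 0.18, and Hspa5 0.12, 0.09, 0.14 and 0.14, none of them called. On the mean of 4 regions Cirbp fell (-0.24 ± 0.06, adjusted p = 0.0198), beside 2.16% of all genes, and Rbm3 had -0.16 ± 0.06 (adjusted p = 0.103). Those means include the title number of replicate 6 of the isolated females on chronic saline in Nac. Its PFC library, which ranked 2 for Cirbp there, stood apart as well. The means were not refitted without these libraries. Chronic cocaine and chronic saline differ in number series, and only series 1200 holds both. Within it Cirbp had -0.16, -0.15, -0.04 and -0.09 in AMY, Nac, PFC and VTA, with no member called by edgeR (2 of the 40 gene and region pairs at an unadjusted p under 0.05) or DESeq2, at a background of 0.00544%, 0.00512%, 0.0277% and 0.00545%. Of the 8 heat-inducible genes, 8, 6, 5 and 2 were lower under cocaine within series 1200 in AMY, Nac, PFC and VTA. Over all series 0, 1, 1 and 0 of them were lower. The cocaine arm of series 1200 held 8 libraries in each region, only 1 of them from isolated females. In PFC, 1 further heat-shock response gene, the co-chaperone Bag3, rose in the comparison over all series (0.26), as did Pdia4 (0.23), and the stress sensor Atf6 fell (-0.20). In that comparison 13 of 74 cell type markers rose and 1 fell in PFC, and their part was not tested. The chronic effect of cocaine less the acute one, which equals the schedule difference under cocaine less that under saline, passed for no member in any region. At an unadjusted p under 0.05 edgeR had 8 of the 40 gene and region pairs, and DESeq2 called 0. The schedule and cocaine comparisons share their chronic libraries, so their values are not independent.

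Housing, the subject of the study's title, gave no called member in any region, and 0% of all genes passed in each. The log2 differences, isolated minus group-housed, lay between -0.15 and 0.04, the lowest adjusted p being 0.995. At an unadjusted p under 0.05 edgeR had 1 of the 40 gene and region pairs, and DESeq2 called 0. Between the sexes, Rbm3 and Hspb1 passed in 1 region each. Rbm3, whose gene is X-linked, was lower in females than in males in VTA (-0.14 ± 0.03, adjusted p = 0.00868), with -0.10, -0.11 and -0.10 in AMY, Nac and PFC. Hspb1 was lower in females in PFC (-0.36 ± 0.09, adjusted p = 0.0235), a call that ended with no filter on low counts. Of the cell type markers, 6 of 74 were also lower in females in PFC, and 7 of 80, 0 of 76 and 1 of 81 in AMY, Nac and VTA, and their part was not tested. The background was 2.19%, 0.272%, 1.12% and 0.332% of genes in AMY, Nac, PFC and VTA. Hspa1b had -0.58 ± 0.15 in VTA (adjusted p = 0.0541). An edgeR F test asked whether sex and housing, in 4 combinations, changed the cocaine effect, and no member passed it for the chronic effect (0 of the 40 pairs at an unadjusted p under 0.05) or the acute effect (5 of the 40). DESeq2 called 0 in both.

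Number series were compared within 1 schedule and treatment, where the labels otherwise agree. In acute libraries, series 1100 had more Hspa1b than series 1000 in Nac (0.997 ± 0.20, adjusted p = 0.00453) and VTA (0.77 ± 0.17, 0.0481), more Hspa1a in Nac (0.70 ± 0.17, 0.0218) and more Hspb1 in PFC (0.37 ± 0.11, 0.0481). Without replicate 6 of the isolated males on acute cocaine, Hspa1b in Nac was 0.91 (adjusted p = 0.0114) and in VTA 0.63 (0.0599). The other calls also ended, with Hspa1a in Nac at 0.62 (0.0559) and Hspb1 in PFC at 0.32 (0.101). Without the libraries that stood apart no member was called in Nac, PFC or VTA. The background was 4.44%, 0.958%, 1.78% and 0.0599% of genes in AMY, Nac, PFC and VTA. In chronic saline libraries, series 1200 had more Hspa1a than series 500 in AMY (0.44 ± 0.13, adjusted p = 0.0466) and more Hsp90aa1 in Nac (0.25 ± 0.09, 0.0219), where 3.54%, 38.4%, 13.4% and 0.0762% of genes passed. In Nac the isolated females of series 500 were a single library, replicate 6, which stood apart. Its Hsp90aa1 was 279 CPM, against 395 to 463 CPM in the others of its group. Leaving out the libraries that stood apart ended the Nac call. Cirbp and Rbm3 did not pass between series in either comparison, and no member did between series 1200 and 1000 in chronic cocaine, where edgeR had 11 of the 40 gene and region pairs at an unadjusted p under 0.05 and DESeq2 called 0.

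Opposite movement was then followed from library to library inside the groups. Each gene's log2 CPM was taken as a residual from the mean of its group and number series, and residuals of the cold-inducible pair were correlated with those of the 8 heat-inducible genes over 114, 110, 111 and 114 libraries of AMY, Nac, PFC and VTA. Of the 64 correlations, 61 were negative and 46 passed an adjusted p of 0.05 (100000 permutations, Benjamini-Hochberg over the 64), all 46 of them negative. The permutations ran over all libraries and made no allowance for the means removed. Their p-values therefore tend to be too small, and calls near the threshold are uncertain. The share of all genes that would pass such a test was not computed, so these counts have no background beside them. Pearson's r ran from -0.70 to 0.06 with a median of -0.32. Hsph1 was the clearest opponent of Cirbp, with r of -0.51, -0.60, -0.70 and -0.54 in AMY, Nac, PFC and VTA. In PFC Spearman's rho was -0.66, and r without the 2 libraries farthest from the median of Cirbp was -0.66; both p-values were 1e-05 before adjustment, the smallest the permutations can give, and 3.37e-05 after it for r. Cirbp and Hsp90aa1 in VTA had r of -0.66 and rho of -0.68 (adjusted p = 3.37e-05), and -0.66 without the 2 farthest libraries.

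**Figure D4:**
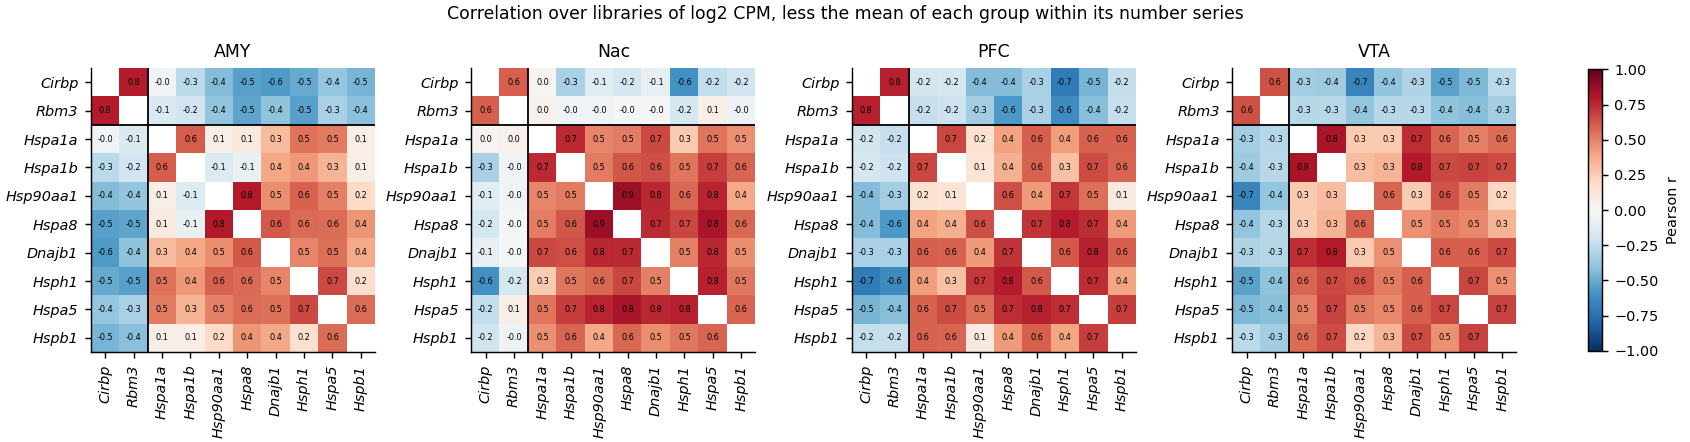
Pearson r between all pairs of the 10 members in each region, over libraries, of log2 CPM less the mean of the group within its number series; the colour scale runs from -1 to 1 and black lines set off Cirbp and Rbm3. The blocks joining the cold-inducible pair to the heat-inducible genes are mostly negative, and both blocks along the diagonal mostly positive, with the palest cold-heat block in Nac.

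Regions and genes differed in how clear the opposition was. By Pearson's r, 7, 3, 6 and 8 of the 8 relations of Cirbp were called in AMY, Nac, PFC and VTA, and 6, 0, 8 and 8 of those of Rbm3. By Spearman's rho the numbers were 7, 5, 6 and 8 for Cirbp and 6, 2, 6 and 8 for Rbm3. In Nac the r of Rbm3 ran from -0.18 to 0.06. By rho, Rbm3 in Nac passed with Hsph1 (-0.25, adjusted p = 0.013) and Hspa8 (-0.21, adjusted p = 0.037), and all 8 of its r were negative without the 2 farthest libraries. Hspa1a was the weakest counterpart, with r of -0.03 and 0.03 with Cirbp in AMY and Nac. Cirbp and Rbm3 correlated with each other at 0.79, 0.60, 0.78 and 0.64 in AMY, Nac, PFC and VTA. Among the heat-inducible genes 110 of 112 correlations were positive, with a median of 0.56, and 102 passed, again with no share over all genes computed. Within single number series the median r of the 64 relations was -0.44 in series 1000, which holds acute libraries and chronic cocaine libraries. It was -0.41 in series 1100, all acute, and -0.16 in series 1200 and -0.08 in series 500, all chronic. In series 500, 37 of the 64 were negative. In series 1200 Rbm3 had 28 of 32 negative (median -0.23), and Cirbp had 16 of 32 negative (median 0.00). Without the libraries that stood apart it was -0.37 over all series. All genes of a library share its depth and scaling, so these values describe libraries, and with DESeq2's scaling the median was -0.33.

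Ranked against 10593 genes of at least 5 CPM in every region, by the mean over regions of the residual correlation, Cirbp and Rbm3 were each other's most alike gene (mean r 0.70). Cirbp was next most like Cdk5rap3 (0.65), Tk2 (0.62), Amdhd2 (0.60) and Amy1 (0.60), and least like Gfod1 (-0.64) and Usp31 (-0.64). Rbm3 was next most like Gnl2 (0.48), Hnrnpdl (0.47), Armcx5 (0.47) and Srsf2 (0.46), and least like Mlec (-0.46) and Hsph1 (-0.44). Counted from the most alike gene, Hsph1, Hsp90aa1, Hspa8, Hspa5 and Dnajb1 ranked 10581, 10234, 10087, 10076 and 9485 for Cirbp. For Rbm3 they ranked 10592, 10514, 10572, 10496 and 10436. Many other genes were thus more opposed to Cirbp than most of these members. Hsph1 in turn had Cirbp as the lowest of its genes (-0.59) and Hspa5 (0.71) and Chordc1 (0.71) as the highest. The genes nearest to each chaperone were mostly other chaperones. Hspa8 was most like Stip1 (0.87), Hsp90ab1 (0.86) and Ahsa1 (0.84), and Hsp90aa1 most like Dnaja1 (0.82), Hspa4 (0.81) and Hspd1 (0.81), which are cytosolic or mitochondrial partners. Hspa5 was most like Pdia4 (0.87), Pdia3 (0.85) and Pdia6 (0.84), the disulfide isomerases of its compartment. Dnajb1 sat with Xbp1 (0.71) and Herpud1 (0.69), Hspb1 with the collagen chaperone Serpinh1 (0.75) and Sdf2l1 (0.68), Hspa1a with Dnajb1 (0.58) and Hspa1b with Sdf2l1 (0.63). The floor of 5 CPM kept Hspa1a, Hspa1b and Hspb1 themselves out of the genes ranked. Hspa1a and Hspa1b correlated with each other at 0.61, 0.74, 0.67 and 0.81 in AMY, Nac, PFC and VTA. These are descriptions over the same libraries, with no p.

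Libraries that carry one title number in different regions have the same sex, housing, treatment and schedule, and the members deviated together across them. After group and series means were removed, all 60 correlations between regions (10 genes, 6 pairs of regions, 97 to 105 numbers each) were positive, from 0.15 to 0.81 with a median of 0.54, while the medians over all genes were between -0.02 and 0.05. Rbm3 had the highest median over its 6 pairs, 0.69, followed by Hspa5 (0.65), Dnajb1 (0.62), Hsph1 (0.58) and Cirbp (0.57). Each of these, and Hspa1b (0.54), passed in 6 of 6 pairs, with permutation p adjusted over the 60. These p-values too make no allowance for the means removed. Hsp90aa1 and Hspa8 had the lowest medians, 0.28 and 0.29, and passed in 5 and 4. Spearman's rho is given beside r for one case: Rbm3 between AMY and PFC had r of 0.81 and rho of 0.82 over 101 numbers, and r of 0.82 without the 2 farthest. Without the 2 numbers farthest from the median in each relation, 59 of 60 were positive with a median of 0.47, and within series 1000, 1100, 1200 and 500 the medians were 0.54, 0.66, 0.29 and 0.43. The labels do not say that a number is an animal.

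**Figure D5:**
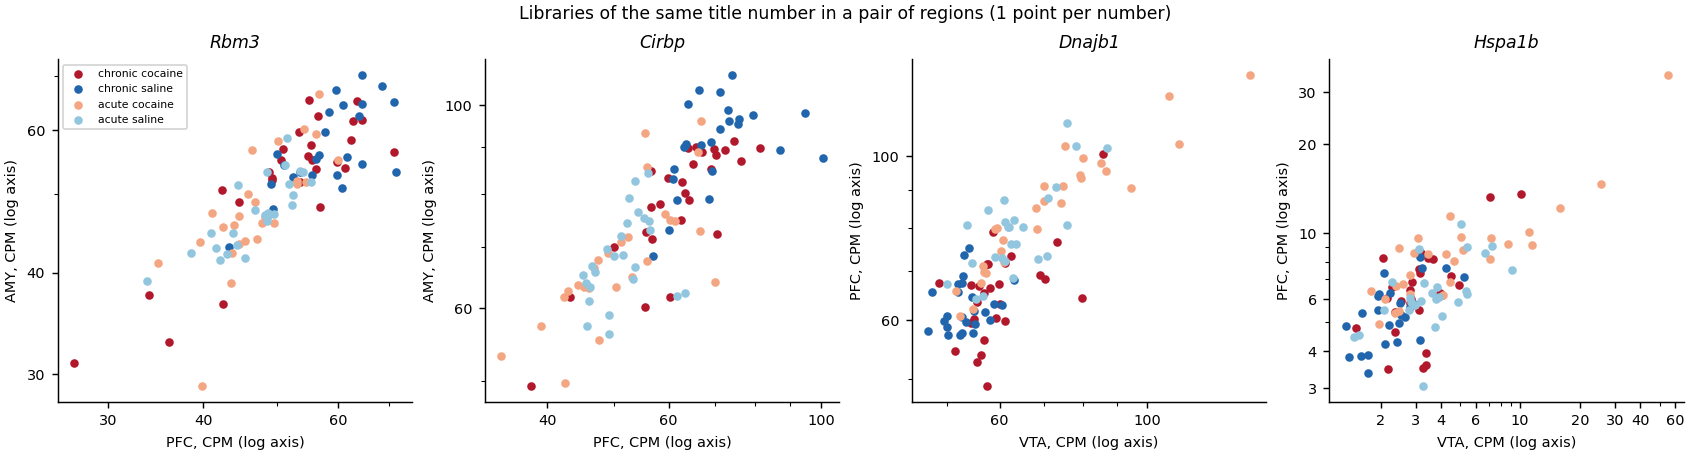
CPM (log axes) of libraries that share a title number, 1 point per number coloured by schedule and treatment, for Rbm3 and Cirbp in AMY against PFC and for Dnajb1 and Hspa1b in PFC against VTA. Points lie along a rising line for each gene, and in the Hspa1b panel 1 number from an acute cocaine group is highest on both axes.

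A single title number had the highest values of several heat-inducible genes. That number is labelled isolated male on acute cocaine, lies in series 1100, and is replicate 6 of its group in Nac, PFC and VTA. It had the highest Hspa1b of all libraries in each of those regions. Its Hspa1b stood at 23.1 CPM in Nac, 34.4 in PFC and 55.1 in VTA, against region medians of 1.480, 6.28 and 3.08, which is 15.6-, 5.47- and 17.9-fold higher. Hspa1a, at 9.59, 11.3 and 20.3 CPM, Dnajb1, at 109, 129 and 143, and Hsph1, at 678, 549.6 and 629, also ranked first in all 3 regions. Hspa5 ranked 2, 1 and 1. Cirbp in the same libraries stood at 49.9 CPM in Nac, 42.5 in PFC and 54.5 in VTA, against medians of 64.2, 49.7 and 58.2 in the acute cocaine libraries. Counted from the lowest of those libraries it was number 4 of 28, 4 of 30 and 12 of 29 in Nac, PFC and VTA. Rbm3 was number 21, 23 and 23 in the same count. None of these 3 libraries was among the 29 that stood apart, and the number was picked after its values were seen.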

How the data were processed

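Poly-A RNA (300 ng) was sequenced as stranded 50-base single-end reads in pools of 21 libraries, per the labels' protocols. STAR, featureCounts and limma on GRCm38 (mm10) are named in the submitters' processing notes; versions, annotation and strand setting were not given in the sources used here. The values analysed are gene counts as deposited by the authors, 43346 genes in all libraries, not normalized; 884 rows without a gene symbol (0.11% of counts) stayed out of library sizes and tests. Lengths and coordinates came from GENCODE M21.

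Each region was fitted alone with edgeR 4.0.16 (R 4.3.3; TMM, filterByExpr, robust quasi-likelihood, 16 groups as cell means), with Benjamini-Hochberg adjustment over 17391, 17266, 17003 and 17144 genes in AMY, Nac, PFC and VTA and a threshold of 0.05. Series comparisons split groups by number series. CPM in comparisons use the region's scaling; levels by region, plots and single numbers use 1 scaling over all libraries, so they differ slightly. Fits over regions used limma 3.58.1 on log2 CPM (prior count 2, 18627 genes, title number as block). Correlations used 100000 permutations of residuals over all libraries, with no allowance for the means removed. DESeq2 1.42.0, RLE scaling, no filter, a series term and leaving out libraries were alternatives. Libraries stood apart by a robust z over 5 on 4 principal components of 3000 variable genes, over 8 on a marker list, or by transcripts of the other sex at 5% or more of that sex's median. The edgeR script was tested on simulated data. Members always, up to 4 genes of each list by lowest p, and the most and least alike genes are named. The members and lists were chosen with earlier results of these data known. Marker lists covered striatal, dopamine, cortical, amygdalar and hypothalamic neurons, astrocytes, oligodendrocytes, microglia, endothelium, mural cells, choroid plexus and cerebellar granule cells.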

Additional observations from a re-analysis of the deposited data

Results flagged for a closer look

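Within each group of 5 to 8 libraries, a member's highest or lowest library was set against the gap to its nearest neighbour (Dixon's ratio at 95%). Of 640 groups tested, 61 held such a library, which is 9.53%. A share of about 5% would hold for values with a normal spread. The tests share libraries and correlated genes, so an excess over that share was not tested. The 61 came from 39 libraries, and 16 lay in libraries that stood apart. The values below are CPM from the scaling within a region, and no explanation was tested.

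Cirbp was the highest of its group at 81.9 CPM in replicate 4 of AMY, group-housed males, acute saline and 184 CPM in replicate 6 of Nac, isolated females, chronic saline. For Cirbp the highest values also included 97.7 CPM in replicate 7 of PFC, group-housed females, chronic saline and 91.3 CPM in replicate 5 of PFC, isolated females, chronic saline. Further highest Cirbp values were 126 CPM in replicate 2 of VTA, isolated males, chronic saline. Cirbp was the lowest of its group at 58.7 CPM in replicate 2 of AMY, isolated males, acute cocaine and 37.0 CPM in replicate 3 of VTA, group-housed females, chronic cocaine. For Cirbp the lowest values also included 52.7 CPM in replicate 2 of VTA, isolated males, chronic cocaine. Rbm3 was the lowest of its group at 30.0 CPM in replicate 7 of AMY, isolated females, acute cocaine and 33.6 CPM in replicate 6 of Nac, group-housed females, acute cocaine. For Rbm3 the lowest values also included 34.1 CPM in replicate 3 of Nac, isolated males, chronic cocaine and 40.6 CPM in replicate 2 of PFC, group-housed males, chronic cocaine. Hspa1a was the highest of its group at 6.36 CPM in replicate 3 of PFC, group-housed females, chronic cocaine and 6.38 CPM in replicate 6 of PFC, group-housed males, acute cocaine. For Hspa1a the highest values also included 5.39 CPM in replicate 3 of VTA, group-housed females, chronic cocaine. Hspa1a was the lowest of its group at 1.80 CPM in replicate 5 of AMY, isolated females, chronic saline and 3.22 CPM in replicate 2 of AMY, isolated males, acute cocaine. For Hspa1a the lowest values also included 1.79 CPM in replicate 4 of PFC, isolated males, chronic saline. Hspa1b was the highest of its group at 5.77 CPM in replicate 6 of Nac, isolated females, chronic saline and 15.6 CPM in replicate 5 of Nac, group-housed males, acute cocaine.

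For Hspa1b the highest values also included 33.3 CPM in replicate 6 of PFC, isolated males, acute cocaine and 10.1 CPM in replicate 3 of VTA, group-housed females, chronic cocaine. Hspa1b was the lowest of its group at 3.42 CPM in replicate 7 of PFC, group-housed males, chronic cocaine. Hsp90aa1 was the highest of its group at 888 CPM in replicate 8 of VTA, isolated females, acute cocaine and 965 CPM in replicate 6 of VTA, isolated males, acute cocaine. Hsp90aa1 was the lowest of its group at 425 CPM in replicate 7 of AMY, isolated males, chronic cocaine and 279 CPM in replicate 6 of Nac, isolated females, chronic saline. For Hsp90aa1 the lowest values also included 383 CPM in replicate 4 of PFC, isolated males, chronic cocaine and 659.9 CPM in replicate 4 of VTA, isolated females, chronic cocaine. Hspa8 was the highest of its group at 1113 CPM in replicate 6 of Nac, isolated females, chronic saline and 1674 CPM in replicate 5 of Nac, group-housed males, acute cocaine. For Hspa8 the highest values also included 1649 CPM in replicate 3 of PFC, group-housed females, chronic cocaine and 1622 CPM in replicate 7 of PFC, isolated females, acute cocaine. Further highest Hspa8 values were 1791 CPM in replicate 5 of PFC, isolated females, acute saline and 1604 CPM in replicate 7 of PFC, isolated males, acute saline. The remaining highest Hspa8 values were 2112 CPM in replicate 2 of VTA, isolated males, chronic saline. Hspa8 was the lowest of its group at 1017.2 CPM in replicate 7 of AMY, group-housed females, chronic saline and 338 CPM in replicate 3 of Nac, isolated males, chronic cocaine. For Hspa8 the lowest values also included 911 CPM in replicate 4 of PFC, isolated males, chronic cocaine and 1346 CPM in replicate 5 of VTA, group-housed males, chronic saline. Dnajb1 was the highest of its group at 100.01 CPM in replicate 5 of Nac, group-housed males, acute cocaine and 54.3 CPM in replicate 4 of Nac, group-housed males, chronic saline.

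For Dnajb1 the highest values also included 96.3 CPM in replicate 3 of PFC, group-housed females, chronic cocaine and 125 CPM in replicate 6 of PFC, isolated males, acute cocaine. Further highest Dnajb1 values were 70.4 CPM in replicate 7 of VTA, isolated females, acute cocaine and 72.8 CPM in replicate 3 of VTA, isolated females, chronic cocaine. The remaining highest Dnajb1 values were 59.0 CPM in replicate 4 of VTA, group-housed males, chronic saline. Dnajb1 was the lowest of its group at 38.7 CPM in replicate 4 of Nac, group-housed males, chronic cocaine and 50.3 CPM in replicate 3 of VTA, group-housed females, chronic saline. Hsph1 was the highest of its group at 673 CPM in replicate 6 of Nac, isolated males, acute cocaine and 633 CPM in replicate 6 of VTA, isolated males, acute cocaine. Hsph1 was the lowest of its group at 286 CPM in replicate 6 of Nac, isolated females, chronic saline. Hspa5 was the highest of its group at 524.3 CPM in replicate 6 of Nac, isolated females, chronic saline and 454.2 CPM in replicate 3 of PFC, group-housed females, chronic cocaine. For Hspa5 the highest values also included 463 CPM in replicate 3 of VTA, group-housed females, chronic cocaine and 479 CPM in replicate 8 of VTA, isolated females, acute cocaine. Further highest Hspa5 values were 418 CPM in replicate 2 of VTA, isolated males, chronic cocaine. Hspa5 was the lowest of its group at 273 CPM in replicate 1 of AMY, group-housed females, acute saline. Hspb1 was the highest of its group at 7.12 CPM in replicate 1 of Nac, group-housed females, chronic saline and 8.17 CPM in replicate 8 of Nac, isolated males, acute saline. For Hspb1 the highest values also included 7.91 CPM in replicate 3 of PFC, group-housed females, chronic cocaine.

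Between regions the schedule difference varied, by limma's F test over all libraries. Under saline it did so for Cirbp (adjusted p = 0.0109), Hsp90aa1 (0.00226) and Hspa8 (7.28e-08), and under cocaine for Hsp90aa1 (0.000405) and Hspa8 (2.78e-06). Hspa8 and Hsp90aa1 were lower in chronic libraries of AMY, Nac and PFC under saline and near the acute level in VTA.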

How the results depend on the processing

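Of 3239 results under an alternative, none reversed a call, 91 lost one and 28 gained one, and 113 of 2525 estimates of members changed sign, none of them called. For chronic against acute under saline the members called were 9, 9, 8 and 8 in AMY, Nac, PFC and VTA, also with RLE scaling, with DESeq2 and without the libraries that stood apart, and with no filter on low counts 9, 8, 8 and 8; series 500 against 1000 gave 5 in Nac and 4 in VTA, and series 1200 against 1000 gave 5 in VTA. Number series as a term could not be fitted there; under cocaine it left 3, 1, 4 and 1 in AMY, Nac, PFC and VTA, and 7, 7, 7 and 6 were called without it. Within series 1000 the count without a filter was 1 in AMY, 0 in Nac and 2 in PFC, and without the libraries that stood apart 2 in AMY.

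Chronic cocaine called 1 member in AMY, Cirbp, with RLE scaling, with DESeq2 and without the libraries that stood apart, against 0 as reported, and 1 in PFC with DESeq2. In Nac it called 0 with no filter, without the libraries that stood apart, with the series term and without replicate 6 of isolated females on chronic saline, against 1 as reported. Numbers with at least 3 regions gave 2 for chronic cocaine and 2 for females against males. Between the sexes the series term and DESeq2 each gave 2 in AMY and 2 in VTA, and no filter gave 0 in PFC.

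For series 1200 against 500, AMY had 0 with no filter, and Nac 2 with RLE scaling, 2 with DESeq2 and 0 without the libraries that stood apart. For series 1100 against 1000, no filter gave 0 in PFC and 0 in VTA, leaving out the libraries that stood apart gave 0 in Nac, PFC and VTA, and DESeq2 gave 2 in VTA. Leaving out replicate 6 of isolated males on acute cocaine gave 1 in Nac, 0 in PFC and 0 in VTA there, and 0 in PFC for acute cocaine within series 1100. That last comparison also had 0 in PFC with no filter and without the libraries that stood apart, and 1 in VTA with DESeq2. The cause of these changes was not tested.

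The title number is the only link between libraries of different regions. Region levels were fitted with it as a block (correlation 0.031), and without the replicate block the members called were 9 for AMY against Nac, where the block gave 10, and 8, 9, 7, 9 and 9 for the other pairs, as with it. Within a region no paired analysis was possible because no number occurs in both groups of a comparison. Low counts limit Hspa1a, Hspa1b and Hspb1.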

Other observations

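For Hspa1b, the highest library in AMY was a group-housed male on acute saline at 13.1 CPM, whose number ranked 16 in Nac, 16 in PFC and 15 in VTA. A number from group-housed males on acute cocaine ranked 2, 2, 2 and 3 for Hspa1b among the libraries of AMY, Nac, PFC and VTA. Another number from group-housed males on acute saline ranked 3 in AMY, 3 in Nac and 2 in VTA. The third highest in PFC, at 13.6 CPM, was a group-housed female on chronic cocaine, whose number ranked 9 in AMY, 6 in Nac and 7 in VTA. These ranks were picked after the values were seen and carry no test.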
